A study of Rattus norvegicus with 4 samples.

Results

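The collagen module comprised 52 genes of the 14137 gene identifiers measured. Members were all genes whose symbol names a collagen alpha chain, a prolyl 4-hydroxylase alpha subunit (P4ha), a procollagen lysyl hydroxylase (Plod) or a lysyl oxidase (Lox, Loxl), together with Serpinh1 and Pcolce. They comprised 39 collagen chains and 13 enzymes and helper proteins. Cells were neonatal rat ventricular myocytes, heart muscle cells taken from newborn rats and cultured without immortalisation; such cultures also carry fibroblasts and other heart cells. Cultures received lentivirus with a control short hairpin RNA (2 libraries) or with a hairpin against Crat (2 libraries), and RNA was taken at day 5. The sample names read WT and KO, but both arms were infected cultures and the Crat arm is a knockdown. The only comparison, Crat hairpin against control hairpin, asks how transcripts differ once Crat, the mitochondrial carnitine acetyltransferase, is depleted.

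Collagens are secreted proteins built from alpha chains that wind into a triple helix. Fibrillar types give heart tissue its tensile strength, type IV forms the sheet of basement membranes around each myocyte and vessel, and other types coat or link these structures. Inside the cell, P4ha enzymes hydroxylate prolines to stabilise the helix, Plod enzymes hydroxylate lysines, and the chaperone encoded by Serpinh1 binds the folded helix. Outside the cell, propeptides are removed, with the help of Pcolce, and lysyl oxidases crosslink the fibrils. Cardiac fibroblasts are the main source of fibrillar collagens in the heart.

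Values are RPM, each library's reads scaled to 1e6, with no correction for gene length, so levels are not compared between genes. The libraries held 23680064 and 1321735 reads (control replicates 1 and 2) and 321516 and 1622998 reads (Crat hairpin replicates 1 and 2). A single read was worth 3.11 RPM in the shallowest library. Crat stood at 148 and 156 RPM in the controls and at 24.9 and 19.7 RPM under its hairpin. Of 16 cardiomyocyte markers 14 were found, with a summed level of 34298 and 34813 RPM in the controls and 16634 and 16876 RPM under the Crat hairpin; 10 fell and 2 rose. All 15 fibroblast markers were found. Thy1, Islr, Postn, Fap, Dpt and Gsn fell, and Pdgfra, Dcn, Fbln1 and Ddr2 rose. The 15 summed to 3876 to 4031 RPM in the controls and 3928 to 3978 RPM under the Crat hairpin. That sum is mostly Postn, at a mean of 2801 against 2451 RPM, while Pdgfra went from 106 to 457 RPM. The median log2 fold change of the 15 was -0.32, so the level sum does not show that each marker held. The 12 mural and smooth muscle markers summed to 5482 and 5599 RPM against 2137 and 2070 RPM; 8 of them fell and 2 rose. Of 10 endothelial markers 8 were found, summing to 56.0 to 66.6 RPM in the controls and 65.3 to 71.5 RPM under the Crat hairpin. Of the 7 endothelial markers tested, 1 rose and 1 fell. Of 12 leukocyte markers 11 were found, at 56.8 to 58.3 RPM against 65.3 to 67.8 RPM, and 0 passed by limma (0 at an unadjusted p under 0.05, and 0 by edgeR). Of 9 epicardial, mesothelial and Schwann markers, 6 were found, at 46.5 to 51.4 RPM against 71.5 to 83.2 RPM. Among these 6, 1 rose and 0 fell, with a median log2 fold change of 0.09. Over all genes tested by limma, 12.6% rose and 6.36% fell. Markers at 0 in at least 1 Crat hairpin library were Fap, Mfap5 and Meox1 of the fibroblast list, Rgs5 of the mural list, Vwf, Cdh5 and Esam of the endothelial list, Csf1r and Cd3e of the leukocyte list and Upk3b of the epicardial list. In bulk RNA, fewer cells of a type and less RNA per cell cannot be told apart. The part of cell composition in the results that follow was not tested.

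Most collagen transcripts were lower under the Crat hairpin, while the enzymes that process collagen went in both directions. Tested with limma on log2(RPM + 1), with p-values adjusted by the Benjamini-Hochberg method over all genes and a threshold of 0.05, 22 members fell and 4 rose. Among all 12949 genes tested, 6.36% fell and 12.6% rose. A mean of at least 1 RPM was required, which 46 of the 52 members met. The collagen chains account for 19 of the falls and for no rise; the enzymes and helpers account for 3 falls and all 4 rises. The median log2 fold change was -0.63 over the 33 collagen chains tested and -0.07 over the 13 enzymes and helpers, against 0.15 over all genes tested. The scale bears on these counts: genes of the mitochondrial genome took 9.47% and 9.08% of reads in the controls and 3.64% and 3.62% under the Crat hairpin. Median-of-ratios scaling, which sets the typical gene near 0, moved the median of all genes to -0.03 and the collagen median to -0.80; with it 26 members fell and 3 rose, and over all genes 1252 fell (9.66%) and 1042 rose (8.04%), against 823 and 1631 on the deposited scale. Under median-of-ratios scaling the median of the enzymes and helpers was -0.26, with 6 falls and 3 rises. The collagen chains then had 20 falls and 0 rises. edgeR on the recovered reads called 30 members lower and 3 higher, with 14.4% and 12.1% of all genes. By edgeR 8 of the 13 enzymes and helpers fell and 3 rose, and 22 collagen chains fell and 0 rose. All 22 members that fell by limma also fell by edgeR, and 3 of the 4 that rose by limma also rose by edgeR.

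The member counts moved with those over all genes when a library was left out. Without control replicate 1, 12 members fell and 1 rose, while 1.36% of all genes fell and 3.29% rose. Without control replicate 2, 19 members fell and 1 rose, while 3.21% of all genes fell and 6.64% rose. Without Crat hairpin replicate 1, 24 members fell and 4 rose, with 10.2% and 19.8% of all genes. Without Crat hairpin replicate 2, 28 members fell and 7 rose, with 20.4% and 28.3% of all genes. When the spread was not tied to the expression level (limma without a variance trend), only Loxl3, Col11a1 and Col14a1 passed.

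Groups that do not overlap are common with 2 libraries a group. Both Crat hairpin libraries lay below both controls in 30 of the 46 tested members and in 21.7% of all genes tested, and above both controls in 8 members and in 39.1% of all genes.

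**Figure D1:**
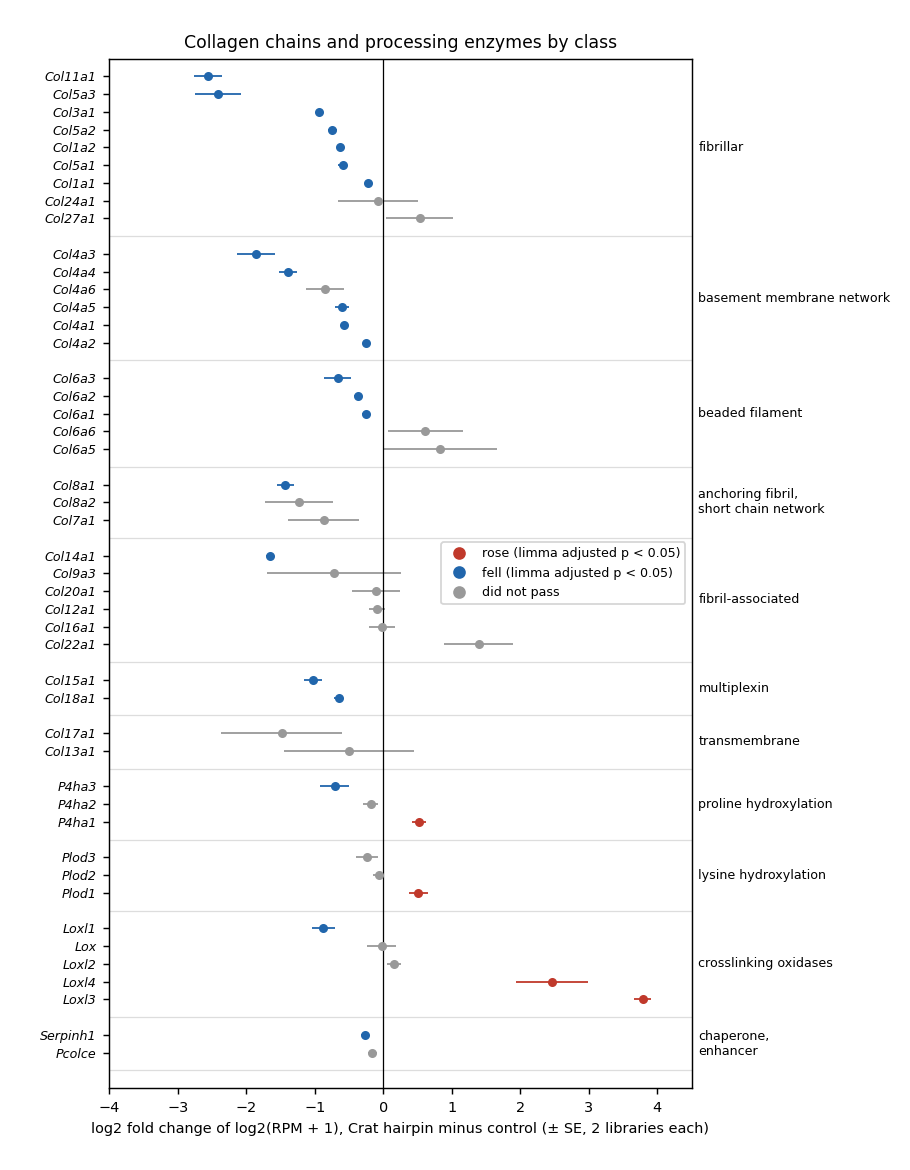
Log2 fold change of each tested member (x axis, Crat hairpin minus control on the log2(RPM + 1) scale) with its standard error, grouped by class; blue members fell, red rose and grey did not pass (limma, adjusted p threshold 0.05). Blue points lie left of 0 in most collagen classes, and the 4 red points, led by Loxl3 at 3.79, are all enzymes.

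By share of reads, the 52 members took 3.83% of all reads in control replicate 1 (Wilson 95% interval 3.83 to 3.84) and 4.03% in control replicate 2 (4.0 to 4.06). Under the Crat hairpin they took 2.76% (2.70 to 2.82) and 2.81% (2.78 to 2.83), so the groups did not overlap. These intervals cover counting error only. The mean difference was -1.15 percentage points, and the exact permutation p was 0.33 (two-sided), the smallest that 2 libraries against 2 can give. The drop lay in the collagen chains, at 3.43% and 3.63% of reads in the controls and 2.32% and 2.39% under the Crat hairpin. The enzymes and helpers together held a mean of 0.402% in the controls and 0.425% under the Crat hairpin. Within them the crosslinking oxidases held 0.0654% against 0.116%. Most of that difference was Loxl3 alone, at a mean of 38.5 against 544 RPM. The chaperone and propeptide enhancer fell together from 0.211% to 0.180%. Proline hydroxylases held 0.0466% against 0.0488% and lysine hydroxylases 0.0793% against 0.0799%.

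Fibrillar collagens fell in 7 of the 9 cases tested, against 6.36% of all genes tested. Type I, the main fibre of heart tissue, is built from the Col1a1 and Col1a2 chains. Col1a1 stood at 7511 and 8134 RPM in the controls and at 6656 and 6688 RPM under the Crat hairpin, a log2 fold change of -0.23 ± 0.04 (SE, 2 libraries against 2; limma adjusted p = 0.0028). Col1a2 stood at 4082 and 4358 against 2740 and 2713 RPM, a log2 fold change of -0.63 ± 0.04 (adjusted p = 6.1e-06). Col3a1, the chain of the thinner and more elastic type III fibre, stood at 7878 and 8146 against 4040 and 4346 RPM, -0.93 ± 0.04 (adjusted p = 2.6e-07). For all 3 genes both Crat hairpin libraries lay below both controls. Type V chains start and limit the width of type I fibrils. Col5a1 was at 902 and 949 RPM in the controls and 588 and 638 RPM under the Crat hairpin (-0.59 ± 0.07, adjusted p = 2.6e-04). Col5a2 was at 1256 and 1282 against 793 and 725 RPM (-0.74 ± 0.06, adjusted p = 3.3e-05). The groups did not overlap for either chain.

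On the log2(RPM + 1) scale the largest falls of the module were in the minor fibrillar chains Col11a1 and Col5a3; by edgeR and DESeq2 their order was reversed. Col11a1, a type XI chain found in the core of cartilage fibrils and also made by activated fibroblasts, stood at 206 and 213 RPM in the controls and at 28.0 and 43.1 RPM under the Crat hairpin, with 9 and 70 reads in the latter. This is 5.88-fold lower, a log2 fold change of -2.56 ± 0.20 (limma adjusted p = 1.9e-05). Col5a3, a further type V chain, stood at 63.5 and 59.8 against 15.6 and 7.39 RPM, -2.41 ± 0.34 (adjusted p = 8.6e-04), resting on 5 and 12 Crat hairpin reads. The Col5a3 log2 fold change was -3.05 by edgeR (Col11a1 -2.57) and -2.93 by DESeq2 (Col11a1 -2.60), and without control replicate 1 it was -2.37 and did not pass. Col24a1 (-0.08) and Col27a1 (0.53) did not pass, and Col11a2, with 16, 2, 0 and 1 reads over the 4 libraries, was under the level filter.

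The bases before the start of Col11a1, which fell most on the log2(RPM + 1) scale, and of Col1a2, a major chain, are shown from RefSeq for the assembly GRCr8 (the deposited table was made on mRatBN7.2). Both are on the plus strand, and capitals mark the CCAAT box, the TATAAA box or the GC box GGGCGG on either strand.
Col11a1, chr2:204508886-204509135: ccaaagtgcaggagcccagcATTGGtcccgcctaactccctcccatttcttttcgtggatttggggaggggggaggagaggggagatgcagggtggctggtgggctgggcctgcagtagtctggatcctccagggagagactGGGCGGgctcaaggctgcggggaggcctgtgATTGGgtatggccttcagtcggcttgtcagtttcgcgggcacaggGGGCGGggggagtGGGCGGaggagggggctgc
Col1a2, chr4:33518307-33518556: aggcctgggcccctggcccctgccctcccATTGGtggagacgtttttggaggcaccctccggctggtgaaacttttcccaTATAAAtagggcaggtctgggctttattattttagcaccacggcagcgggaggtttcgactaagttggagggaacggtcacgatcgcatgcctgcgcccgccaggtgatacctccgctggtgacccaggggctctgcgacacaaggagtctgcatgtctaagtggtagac
The Col11a1 stretch holds CCAAT at 2 places, both on the minus strand, and GGGCGG at 3. The Col1a2 stretch holds a single CCAAT, on the minus strand, and a single TATAAA.

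Basement membrane collagen fell in 5 of its 6 genes, against 6.36% of all genes tested. Type IV chains assemble as networks; Col4a1 and Col4a2 form the common network, and Col4a3, Col4a4 and Col4a5 a more restricted network known from kidney. Col4a1 stood at 4237 and 4594 RPM in the controls and at 2874 and 3069 RPM under the Crat hairpin (-0.57 ± 0.05, limma adjusted p = 3.8e-05). Col4a2 stood at 2318 and 2497 against 2012 and 2046 RPM (-0.25 ± 0.05, adjusted p = 0.0066). Log2 fold changes were larger in size for Col4a3 and Col4a4 of the restricted network, a difference between genes that was not tested. Col4a3 had 49.4 and 65.1 against 12.4 and 17.9 RPM (-1.86 ± 0.28, adjusted p = 0.0013). Col4a4 had 237 and 244 against 84.0 and 99.2 RPM (-1.39 ± 0.13, adjusted p = 5.5e-05). Both genes had groups that did not overlap, but Col4a3 rested on 4 and 29 Crat hairpin reads, and its SE is smaller than their counting error. Col4a5 had 454 and 444 against 271 and 323 RPM (-0.60 ± 0.10, adjusted p = 0.0025). Col4a6 was at 30.8 and 28.0 against 15.6 and 16.0 RPM, -0.85 ± 0.27, and narrowly missed the threshold (adjusted p = 0.059). It passed under 8 of the 18 alternatives, edgeR and median-of-ratios scaling among them (its adjusted p over the alternatives ran from 2.5e-04 to 0.510). Without control replicate 1, Col4a3 (-2.05) and Col4a5 (-0.58) did not pass.

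The 6 type IV genes lie as 3 pairs that point away from each other. In RefSeq the starts of Col4a1 and Col4a2 are 77 bases apart, those of Col4a3 and Col4a4 413 bases and those of Col4a5 and Col4a6 1415 bases. The stretch between the first pair is shown because both genes are read outward from it and both fell; capitals mark GGGCGG on the minus strand.
Col4a1 to Col4a2, GRCr8 chr16:84885521-84885596, plus strand: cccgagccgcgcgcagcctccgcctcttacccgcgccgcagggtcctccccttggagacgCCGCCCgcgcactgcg
It holds no CCAAT and no TATAAA. The 250 bases searched before each start reach beyond this stretch, and for both genes they do hold CCAAT.

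Ratios between chains of a collagen type do not depend on the scaling of the library. Col1a1 reads were 1.84 and 1.87 times those of Col1a2 in the controls and 2.43 and 2.46 times under the Crat hairpin. The Col1a1/Col1a2 log2 ratio differed by 0.40, with a counting error of 0.03. Col4a1 over Col4a2 moved the other way, from 1.83 and 1.84 to 1.43 and 1.50, a log2 difference of -0.33 (counting error 0.04). Col3a1 over Col1a1 went from 1.05 and 1.0 to 0.607 and 0.650. Col6a1 over Col6a2 went from 0.936 and 0.927 to 1.0 and 1.01, a log2 difference of 0.11 (counting error 0.08). In these 4 pairs the gap between groups was larger than the gap between replicates. Col5a1 over Col5a2 (0.718 and 0.740 against 0.741 and 0.879) differed by 0.15 on the log2 scale, with a counting error of 0.08, and its groups nearly met. Col4a4 over Col4a3 and Col4a5 over Col4a6 differed by 0.53 and 0.29, near their counting errors of 0.42 and 0.38. Of the 7 ratios computed, each had an exact permutation p of 0.33, the smallest this design allows, so none can pass a threshold.

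**Figure D2:**
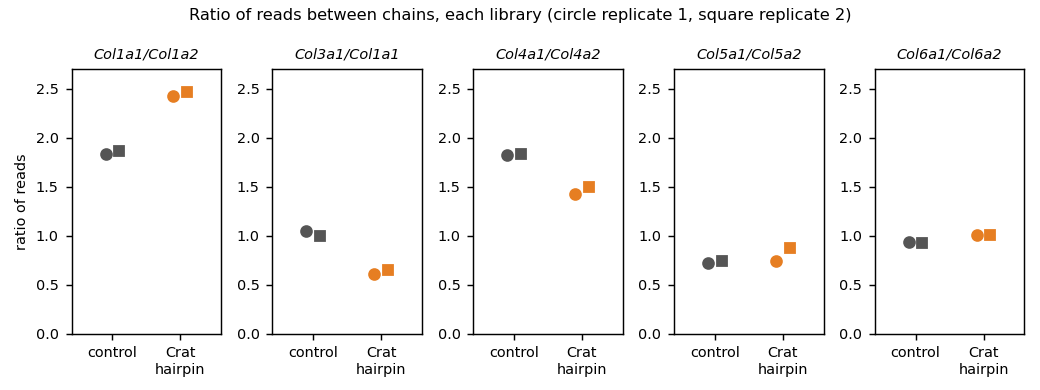
Ratio of reads between a pair of collagen chains (y axis, no unit) in each library, with circles for replicate 1 and squares for replicate 2. Col1a1 over Col1a2 is higher under the Crat hairpin (2.43 and 2.46 against 1.84 and 1.87), and Col3a1 over Col1a1 and Col4a1 over Col4a2 are lower.

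Type VI collagen forms beaded filaments near the cell surface. Col6a1 stood at 963 and 981 RPM in the controls and at 802 and 823 RPM under the Crat hairpin (-0.26 ± 0.06, limma adjusted p = 0.013). Col6a2 stood at 1028 and 1058 against 799 and 813 RPM (-0.37 ± 0.06, adjusted p = 0.0016), and Col6a3 at 73.4 and 96.1 against 46.7 and 59.1 RPM (-0.67 ± 0.20, adjusted p = 0.045). Both Crat hairpin libraries lay below both controls for each. None of the 3 passed without control replicate 1 (log2 fold changes of -0.27, -0.39 and -0.86), nor did Col6a1 (-0.25) and Col6a3 (-0.47) without control replicate 2. Col6a3 lost its call in 6 of the 18 alternatives, which also include no level filter, no variance trend, DESeq2 (-0.79) and the authors' deposited table of adjusted p. Col6a5 and Col6a6 were weakly expressed, with at most 3 reads in Crat hairpin replicate 1, and did not pass (0.83 and 0.61). Col28a1 was under the level filter.

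Among network and fibril-associated types, 2 genes fell strongly. Col8a1, a short-chain collagen made by endothelial and smooth muscle cells, stood at 277 and 278 RPM in the controls and at 93.3 and 112 RPM under the Crat hairpin, 2.70-fold lower (-1.43 ± 0.12, limma adjusted p = 3.8e-05). Col14a1, a fibril-associated collagen that regulates fibril growth, stood at 1526 and 1578 against 498 and 490 RPM, 3.14-fold lower (-1.65 ± 0.06, adjusted p = 6.8e-08). The replicates of each group differed by far less than the groups. Col12a1, a relative of Col14a1 on fibril surfaces, gave overlapping groups, with 152 and 164 RPM in the controls and 156 and 140 RPM under the Crat hairpin (-0.09 ± 0.12, adjusted p = 0.63). Col16a1 also overlapped, at 87.1 and 85.5 against 71.5 and 102 RPM (-0.02 ± 0.18, adjusted p = 0.96). Col7a1 (-0.87), Col8a2 (-1.23), Col9a3 (-0.72), Col20a1 (-0.11) and Col22a1 (1.39) were weakly expressed and did not pass. Col9a2, Col10a1 and Col19a1 were under the level filter.

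The multiplexins, basement membrane collagens that carry sugar chains, both fell. Col15a1 stood at 173 and 160 RPM in the controls and at 84.0 and 78.3 RPM under the Crat hairpin (-1.03 ± 0.13, limma adjusted p = 4.7e-04). Col18a1, whose C-terminal fragment is endostatin, stood at 750 and 783 against 495 and 481 RPM (-0.65 ± 0.07, adjusted p = 1.3e-04). Neither gene had overlapping groups. Col15a1 did not pass without control replicate 1 (-0.98). Of the transmembrane collagens Col13a1 (-0.50) and Col17a1 (-1.48) did not pass, both with no read in Crat hairpin replicate 1, and Col23a1 was under the level filter.

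The 6 members under the level filter had 10 to 26 reads in control replicate 1, at most 2 in control replicate 2, none in Crat hairpin replicate 1 and at most 1 in Crat hairpin replicate 2, so no difference was detectable at this depth. Of the 12 tested members with a mean under 20 RPM, 11 did not pass.

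**Figure D3:**
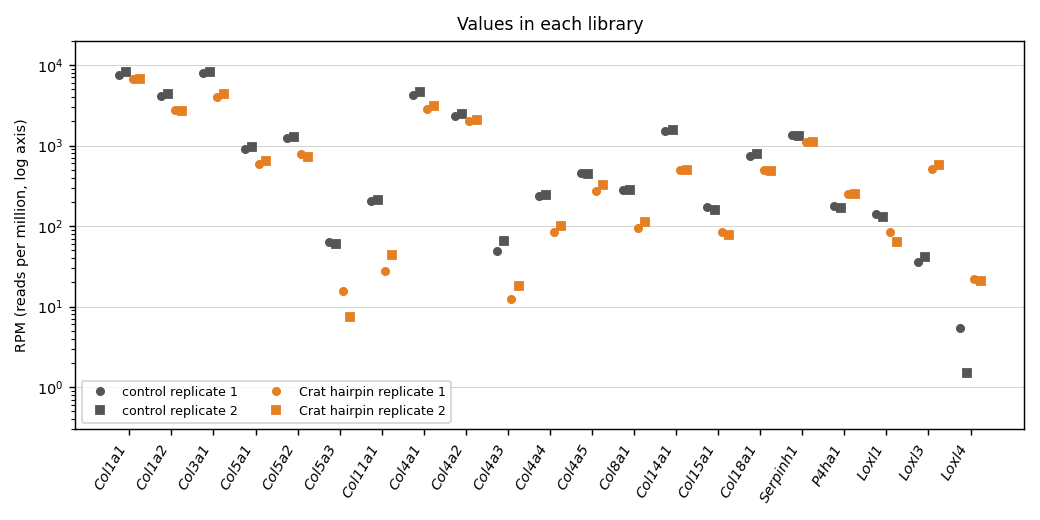
RPM of 21 members in each library on a log axis, grey for the controls and orange for the Crat hairpin, circles for replicate 1 and squares for replicate 2. Only members that passed by limma are shown, so each collagen shown had already been called lower. Collagen chains that did not pass are left out. Orange lies below grey for every collagen shown and for Serpinh1 and Loxl1, and above it for P4ha1, Loxl3 and Loxl4.

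Of the 5 crosslinking oxidases 2 rose and 1 fell, while 12.6% of all genes tested rose and 6.36% fell. With so few genes these counts do not describe the class as a whole. Lysyl oxidases turn lysines of collagen and elastin into aldehydes that then form crosslinks. Loxl3 had the largest change of the module: it stood at 36.1 and 40.9 RPM in the controls and at 516 and 571 RPM under the Crat hairpin, 13.8-fold higher (3.79 ± 0.13, limma adjusted p = 5.4e-08). These values rest on 855 and 54 control reads and on 166 and 927 Crat hairpin reads, and the Loxl3 log2 fold change stayed between 3.58 and 3.87 over the 18 alternatives. Loxl4 stood at 5.49 and 1.51 against 21.8 and 20.9 RPM (2.47 ± 0.52, adjusted p = 0.0097), with only 2 reads in control replicate 2. Without control replicate 1 the Loxl4 log2 fold change was 3.15 and without control replicate 2 it was 1.78, and it did not pass in either case. Loxl1, which acts mainly in elastic fibres, moved the other way, from 140 and 129 to 84.0 and 63.5 RPM (-0.87 ± 0.17, adjusted p = 0.0052; -0.82 and not passed without control replicate 1).

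Lox itself, the founding member of the family, overlapped between groups at 87.2 and 93.1 against 112 and 70.2 RPM (-0.02 ± 0.21, adjusted p = 0.96). Loxl2 stood at 385 and 389 against 473 and 393 RPM (0.16 ± 0.10, adjusted p = 0.32). The sign for Loxl2 depended on the scaling, with -0.04 under median-of-ratios scaling. The summed share of the 5 oxidases was 0.0654% of reads in the controls and 0.116% under the Crat hairpin, and most of that difference was Loxl3.

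Loxl3 lies between Dok1, an adaptor protein of kinase signalling, and Htra2, a mitochondrial protease, in RefSeq. Dok1 also rose, from 7.69 and 4.54 to 74.6 and 80.1 RPM (3.50 ± 0.31, limma adjusted p = 4.3e-05), and Htra2 rose from 31.9 and 32.5 to 62.2 and 65.9 RPM (0.97 ± 0.19, adjusted p = 0.0068). The 2 neighbours were named after their values were seen. The Loxl3 and Htra2 genes share bases at their ends in GRCr8, and the sources used here do not say whether counting used the strand, so their reads may not be fully separable. The stretch between Dok1 and Loxl3 is shown because both genes rose; on either strand it holds no CCAAT box, no TATAAA box, no GC box and no CAGAC.
Dok1 to Loxl3, GRCr8 chr4:117098252-117098357, plus strand: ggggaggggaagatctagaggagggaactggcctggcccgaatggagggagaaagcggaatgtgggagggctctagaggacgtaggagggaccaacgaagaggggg

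Of the 6 hydroxylases 2 rose and 1 fell by limma on the deposited scale, while 12.6% of all genes tested rose and 6.36% fell. By edgeR only P4ha1 rose, and P4ha2, P4ha3, Plod2 and Plod3 fell. Under median-of-ratios scaling only P4ha1 rose, and P4ha2 (-0.38), P4ha3 (-0.90) and Plod2 (-0.26) fell. P4ha1, the main catalytic subunit of prolyl 4-hydroxylase, stood at 178 and 169 RPM in the controls and at 252 and 249 RPM under the Crat hairpin (0.52 ± 0.10, limma adjusted p = 0.0056). P4ha3 went from 71.7 and 74.1 to 52.9 and 37.0 RPM (-0.71 ± 0.21, adjusted p = 0.042), and P4ha2 had 219 and 219 against 180 and 206 RPM without passing (-0.18 ± 0.11, adjusted p = 0.29). The rise of P4ha1 was not called by TMM scaling (0.32), by DESeq2 (0.32), in the authors' deposited table of adjusted p, without control replicate 1 (0.56) or without control replicate 2 (0.49). P4ha3 did not pass without control replicate 1 (-0.73), without control replicate 2 (-0.69), without the level filter or without a variance trend. Plod1, which hydroxylates lysines within the helix, stood at 119 and 116 against 187 and 152 RPM (0.51 ± 0.14, adjusted p = 0.027). Plod1 lost its call in 10 of the 18 alternatives, including edgeR (0.21), median-of-ratios scaling (0.32) and without control replicate 1 (0.54) or 2 (0.49). Plod2, the hydroxylase of the chain ends that fixes the kind of crosslink, stood at 546 and 529 against 529 and 496 RPM (-0.07 ± 0.07, adjusted p = 0.56). Plod3, which also adds sugars, stood at 130 and 146 against 134 and 102 RPM (-0.24 ± 0.16, adjusted p = 0.34).

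Serpinh1, which encodes the collagen chaperone HSP47, stood at 1344 and 1330 RPM in the controls and at 1101 and 1121 RPM under the Crat hairpin (-0.27 ± 0.05, limma adjusted p = 0.0057); without control replicate 1 it did not pass (-0.26). Pcolce, which speeds removal of the C-propeptide, stood at 750 and 797 against 697 and 688 RPM (-0.16 ± 0.06, adjusted p = 0.12). Pcolce was called lower in 7 of the 18 alternatives, edgeR (-0.36) and median-of-ratios scaling (-0.35) among them. The 8 members called lower by edgeR but not by limma on the deposited scale were Col12a1, Col4a6, Col8a2, Lox, P4ha2, Pcolce, Plod2 and Plod3.

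Upstream letters were compared over all members with an entry in the RefSeq promoter table, 43 of 52; Col1a1, Col3a1, Col6a2, Col9a3, Col12a1, Col14a1, Col22a1, Lox and Loxl2 had no entry. The 250 bases before the start were searched on both strands, and motifs were allowed to overlap. GGGCGG was found before 27 of the 43 members (62.8%) and before 32.4% of all 27457 genes in the table. CCAAT was found before 11 members (25.6%, against 34.3% of all), TATAAA before 4 (9.30%, against 13.1%) and CAGAC before 17 (39.5%, against 42.8%). The core of the interferon-stimulated response element was found before Col6a6 only (2.33%, against 3.29%), and the CArG box before 0 members (against 1.50% of all). Of the 18 members that fell and had an entry, 11 held GGGCGG, 10 CAGAC, 5 CCAAT and 1 TATAAA. Of the 4 that rose, 2 held GGGCGG, 2 CAGAC, 1 CCAAT and 0 TATAAA. These are matches of letters and were not tested. The shares over all genes include genes that these cultures may not express. Col4a1 and Col4a2, with starts 77 bases apart, share bases, so the GGGCGG between them counts for both.

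Genes that act beside the members were mixed. Over all genes tested, 12.6% rose and 6.36% fell on the deposited scale, and 8.04% and 9.66% by median-of-ratios scaling. No list was tested against these shares. In the list of folding, modification and export, 6 of 19 tested genes rose and 2 fell on the deposited scale (3 and 3 with the typical gene set near 0 by median-of-ratios scaling). Creb3l1, an ER-bound transcription factor that drives collagen genes, stood at 44.4 and 42.4 RPM in the controls and at 99.5 and 92.4 RPM under the Crat hairpin (1.13 ± 0.17, limma adjusted p = 0.0012). The calcium-binding Rcn3 rose by 0.91 and the disulfide isomerase Pdia3 by 0.76, while P3h4, part of a lysyl hydroxylase complex, fell by 0.77. P4hb, the partner subunit of the P4ha enzymes and named after its values were seen, rose by 0.33 but did not pass under median-of-ratios scaling (0.14). Propeptide removal had 1 rise and 1 fall among 6 tested genes (0 and 2 by median of ratios): the protease Adamts3 rose by 1.60, from 3.42 and 3.03 to 12.4 and 11.1 RPM, and Tll1, a tolloid-like C-proteinase, fell by 1.69, from 35.1 and 37.1 to 9.33 and 11.7 RPM.

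Of 15 fibril-binding genes 4 rose and 6 fell, against 12.6% and 6.36% of all genes tested. Thbs1 fell by 1.80, whereas Fbln1 rose by 1.78, the thrombospondin Thbs2 by 1.32 and the small proteoglycan Dcn, which coats collagen fibrils, by 1.12. Of 6 collagen receptors tested, 3 fell and Ddr2 rose (3 falls and 0 rises by median of ratios). Itga11, the alpha chain of a fibroblast receptor for fibrillar collagen, fell by 1.95, its partner Itgb1 by 1.34 and Itga1, which binds type IV collagen, by 0.64; the collagen-activated kinase Ddr2 rose by 0.33, and under median-of-ratios scaling it did not pass (0.14). Breakdown had 2 rises and 1 fall among 13 tested genes (1 and 3 by median of ratios). On the deposited scale these counts lie near the shares over all genes. Mrc2, which takes up collagen fragments for lysosomal breakdown, rose from 144 and 140 to 308 and 311 RPM (1.12 ± 0.10, limma adjusted p = 4.5e-05), Mmp9 rose by 1.14 (0.96 and not passed under median-of-ratios scaling), and Fap, a protease of activated fibroblasts, fell by 2.90 from 12.3 and 13.6 to 0 and 2.46 RPM. In proline supply 0 of 4 passed by limma, with 1 (Aldh4a1) at an unadjusted p under 0.05 and 0 by edgeR and DESeq2; Aldh4a1, whose identifier the table also gives to other symbols, stood at 0.45 and Slc23a2 at -0.07. Transcription had 5 rises and 4 falls among 23 tested genes (1 and 4 by median of ratios): Smad7, the brake on TGF-beta signalling, rose by 0.78 and Nfya, a subunit of the CCAAT-binding factor, by 0.76 (0.58 and not passed under median-of-ratios scaling), while Ccn2 fell by 2.08 and Tgfb3 by 1.59.

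**Figure D4:**
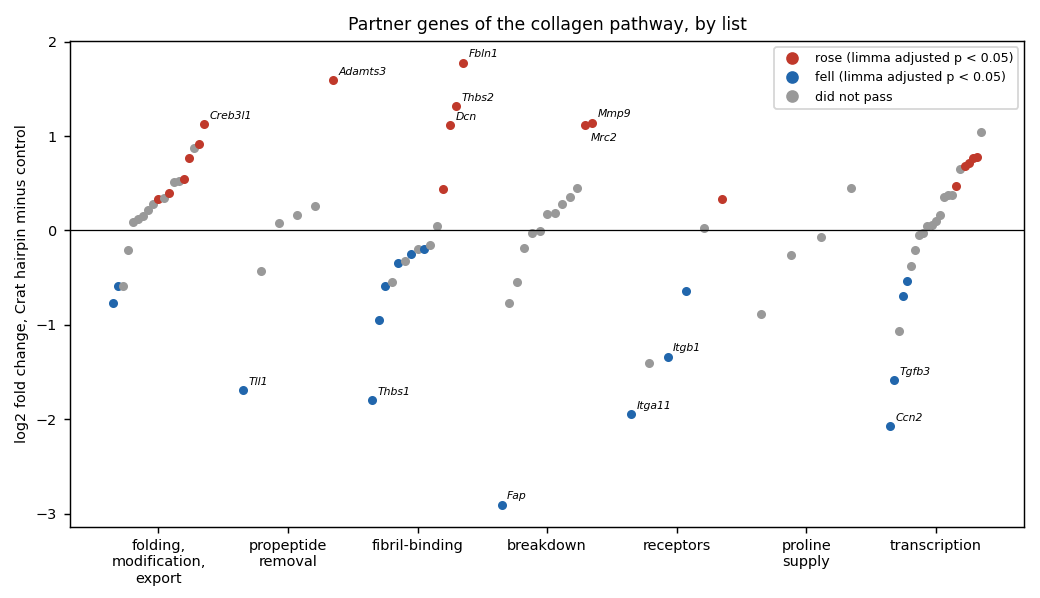
Log2 fold change (y axis, Crat hairpin minus control on the log2(RPM + 1) scale) of each tested partner gene, in columns by list; red rose, blue fell and grey did not pass (limma, adjusted p threshold 0.05). Names mark called changes of at least 1 in size, from Fap at -2.90 to Fbln1 at 1.78.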

How the data were processed

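RNA sequencing of 4 libraries was analysed, 2 per group, grouped by the titles in the labels. The authors deposited 14318 rows for 14137 gene identifiers; the submitters' processing notes name kallisto, DESeq2 and mRatBN7.2, with no word on how gene values were summed or filtered. Library columns carry TPM in their names, per the file headers. However, 100% of values were whole multiples (within 0.02 of a read) of a step constant within the library, so this deposited signal is reads scaled to the library total (RPM), and the reads were recovered. The deposited p-value, adjusted by the authors, served as an alternative only.

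Genes averaging 1 RPM or more were fitted on log2(RPM + 1) by limma 3.58.1 (R 4.3.3) using a variance trend, with Benjamini-Hochberg adjustment over all genes and a threshold of 0.05. The design assumed TPM; the same test was kept. Fold changes on this scale understate changes of low genes. The fit gave each library equal weight whatever its depth. Where a Crat hairpin library held few reads, the SE can lie below counting error. This holds for Col11a1, Col4a3, Col4a4, Col4a6, Col5a3, Col8a1 and Col15a1, among others. Alternatives included edgeR 4.0.16 and DESeq2 1.42.0 on recovered reads. The fits were also run on simulated reads whose spread was estimated from these same libraries, which cannot check the spread between cultures. The labels do not name separate cultures within a group, so p-values may measure technical spread alone. Every member is named. Each partner list gives at most the 4 called genes that changed most, or its 2 highest by mean when under 2 were called. Members and lists were chosen with earlier results of these data known. Upstream sequences are RefSeq's, GRCr8.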

Additional observations from a re-analysis of the deposited data

How the results depend on the processing

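Among 18 alternatives, the 26 called members kept their direction in each, and 3 of them (Loxl3, Col11a1 and Col14a1) kept their call in each. Members that rose numbered 2 under TMM scaling, 2 by DESeq2, 2 in the authors' deposited adjusted p and 1 without a variance trend, and 1 to 7 with a library left out. Members that fell numbered 2 without a variance trend and 12 to 28 with a library left out. Over all genes, rises numbered 1042 under median-of-ratios scaling, 1003 under TMM scaling, 266 without a variance trend, 748 by DESeq2, 694 in the authors' deposited adjusted p and 425 to 3632 with a library left out. Falls numbered 1252, 1281 and 79 under the first 3 of these, 2038 by edgeR, 1732 by voom with sample weights and 176 to 2620 with a library left out. The cause was not tested. The difference in the members' share of reads was -1.45 percentage points without mitochondrial genome reads. The replicate numbers are not stated to pair libraries, and deviations of same-numbered libraries were uncorrelated (r = 0.01 over 2151 genes); with a replicate block 22 members fell and 4 rose. Crat hairpin replicate 1, with 321516 reads, limits every value of weak genes.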
